A study of Rattus norvegicus with 9 samples.

Results

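Kidneys treated with mesenchymal stem cells (MSC) are compared here with control kidneys of the same study in rats of the SD strain (Sprague-Dawley, an outbred laboratory stock). The comparison used 6 of the 9 libraries of the study, chosen by their titles, 3 treated and 3 control, and the other 3 came from rats modelling chronic kidney disease (CKD). The title of the series places the cell infusion in rats with CKD, so the treated kidneys may differ from the controls by the disease as well as by the cells, and these cannot be told apart in this comparison. The method of inducing CKD, the origin and number of the infused cells, the sex and age of the rats and the day of sampling are not given in the sources used here. Nor do the sources say whether replicates were separate animals. The p-values thus refer to the spread among these libraries, part of which may be technical.

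Mesenchymal stem cells are stromal cells that can be grown from bone marrow, fat or cord tissue, and they are studied in kidney disease mainly for the growth factors and immune-modulating signals that they release. The kidney is a mixture of tubule, glomerular, vascular, stromal and immune cells. In bulk RNA of such a tissue, more cells of a type and more RNA per cell cannot be told apart. The deposited table lists genes by Ensembl identifier, none of which could be paired with a symbol, so neither the kidney label nor the function of any gene could be checked. The results are therefore given by the number, level and size of change of genes, with 4 identifiers printed.

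Expression differed between treated and control kidneys in about 1 gene of 3. Over all levels together, the genes that rose had the larger median change. Of 17584 genes tested, 5677 (32.3%) had an adjusted p under 0.05 in edgeR's quasi-likelihood test, 2974 of them higher (16.9% of tested genes) and 2703 lower (15.4%) in MSC kidneys. The median log2 fold of the genes called higher was 1.45, a 2.73-fold increase, whereas that of the genes called lower was -0.69, a 1.61-fold decrease. Before adjustment, 7922 genes had a p under 0.05. At an adjusted p under 0.01 there were 1750 genes, 969 higher and 781 lower. The fit took in all 9 libraries, whose spread was estimated jointly. The number called was lower when any single library was left out, which also leaves fewer samples. It was 3077 without MSC replicate 2, 3232 without control replicate 3 and 3261 without MSC replicate 1. Without control replicates 1 and 2 it was 3817 and 3960, and without MSC replicate 3 it was 5525.

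Treated kidneys had more genes detected at a lower depth. Total counts were 53059872 to 54234681 in control and 47633344 to 48767298 in MSC libraries, so the treated libraries were the shallower, and the totals of both groups did not overlap. Even so, 18520 to 18974 genes had at least 1 count in the controls and 19461 to 19544 in MSC kidneys. More genes also stood at middle levels: 7597 to 7912 genes lay between 10 and 100 CPM (counts scaled to the library total) in controls and 8172 to 8366 in MSC kidneys. Genes over 100 CPM overlapped between groups, at 1778 to 1979 and 1773 to 1941. Those 4 ranges scale by the library total alone, and CPM values elsewhere are scaled by TMM too. On that scale 3 counts stood for 0.0557 to 0.0615 CPM in controls and 0.0583 to 0.0626 CPM in MSC libraries. These 3 counts were taken as the upper 95% limit (1-sided) of a count of 0, for counting error only.

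Over all levels together, more genes rose than fell at every cutoff of size examined. At least 1.5-fold were 2570 of the 2974 genes called higher (86.4%) and 1688 of the 2703 called lower (62.4%). At 4-fold these numbers were 1002 (33.7%) and 189 (6.99%). For genes with 0 counts in every library of 1 group, 119 among those called higher and 13 among those called lower, the fitted fold depends on how the model handles 0. With those genes set to the lower bound that 3 counts per library allow, 402 genes rose and 61 fell by at least 8-fold, and 177 rose and 19 fell by at least 16-fold. Most of them were scarce. Of the 402, 157 had a mean level under 1 CPM and 182 one from 1 to 10 CPM, and of the 61, 30 and 21 did. The median log2 folds were 1.45 and -0.69 with these bounds too. The 95% interval of the fitted fold, with no gene set to a bound, lay wholly beyond 2-fold for 944 genes called higher and 211 called lower.

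**Figure D1:**
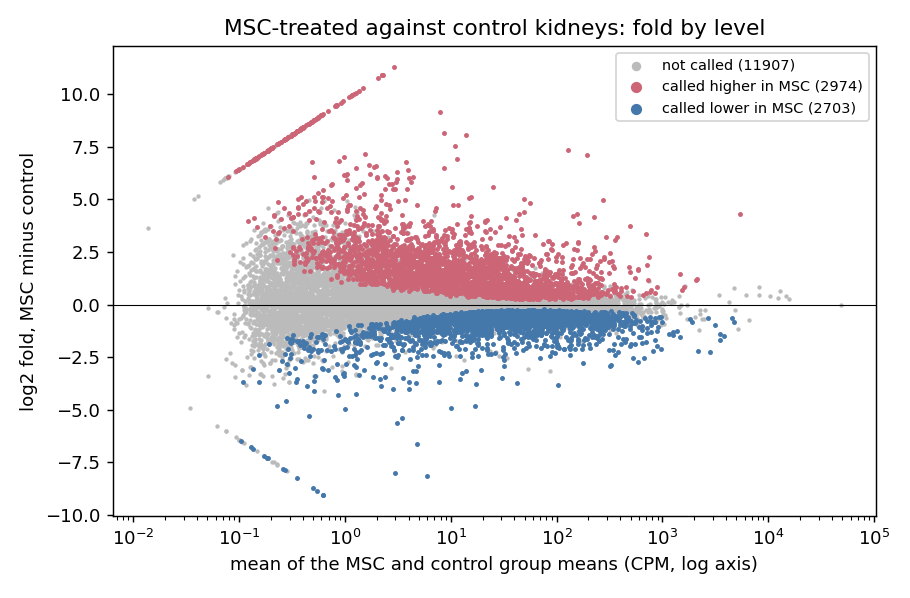
Log2 fold between MSC and control kidneys (vertical axis) against the mean of both group means in CPM (horizontal log axis) for 17584 genes, 1 point each. Red points are the 2974 genes called higher and blue points the 2703 called lower at an adjusted p under 0.05, grey points the 11907 not called, and the straight lines of points at the left are genes with 0 counts in every library of 1 group, whose fitted fold is no bound.

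The direction of change differed with the level of a gene. Levels here are the mean of both group means, which contains the values under comparison, so this is a description. The median log2 fold over all tested genes, called or not, moved with level too. It was 0.36 under 1 CPM, 0.21 from 1 to 10 CPM and -0.07 from 10 to 100 CPM. Above these bands it was -0.17 from 100 to 1000 CPM and -0.26 at 1000 CPM or more. Among genes between 1 and 10 CPM, 1143 were called higher and 407 lower, of 4557 tested. From 10 to 100 CPM the balance was the other way, with 1270 higher and 1677 lower of 8131. That middle band depended on scaling, since it held 1252 higher and 1129 lower genes when libraries were scaled by their totals only. At 100 CPM or more, 257 genes were called higher and 525 lower, and lower genes stayed the larger group under all 3 other scalings run and without each of the 6 libraries in turn (30.7% to 40.3% higher). Under 1 CPM, 304 were called higher and 94 lower, where a gene near 0 in 1 group can be called in only 1 direction.

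**Figure D2:**
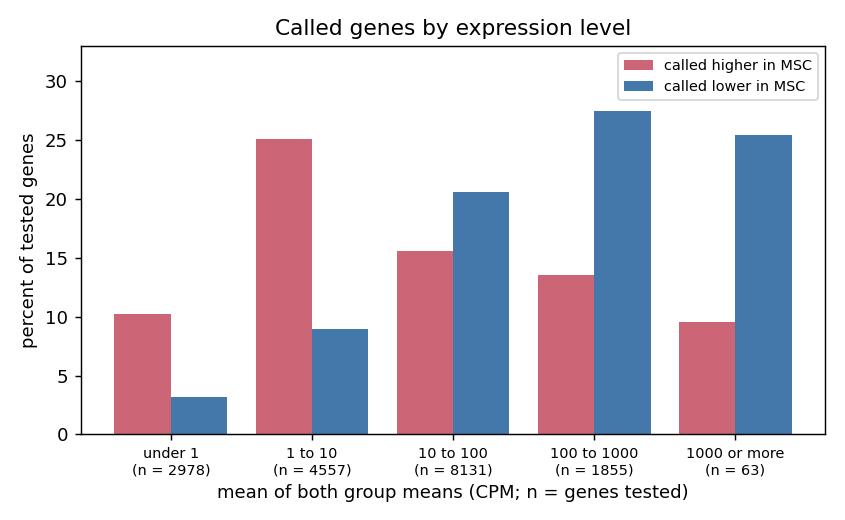
Percent of tested genes called higher (red bars) or lower (blue bars) in MSC kidneys, by band of mean level in CPM, with the number of genes tested under each band. From 1 to 10 CPM 25.1% were called higher and 8.93% lower, against 13.5% and 27.4% from 100 to 1000 CPM, where the order is the other way.

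Among genes at 100 CPM or more by the mean of both group means, decreases were more numerous, and more increases than decreases reached 8-fold. Of the 257 genes at 100 CPM or more that were called higher, 94 changed by at least 2-fold (median log2 fold 0.78), and of the 525 called lower, 142 did (median log2 fold -0.71). At least 8-fold were 13 genes among the higher and 1 among the lower. This is a description, since a gene can reach that level through the group where it is high. Control means of the 13 genes went down to 1.58 CPM. Over the 100 most abundant genes of the 6 libraries, 8 were called higher, 29 lower and 63 neither way. None of the 10 most abundant, all with a mean level of at least 6106 CPM, was called by edgeR, and their median log2 fold was 0.41.

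The 13 genes at this mean level that rose at least 8-fold averaged between 1.58 and 523.9 CPM in controls and between 255 and 10198 CPM in MSC kidneys. Their highest value was in MSC replicate 1 for 12 genes and in MSC replicate 2 for 1 gene. The most abundant of them, singled out after its values were seen and not named here, had 401, 706 and 465 CPM in control replicates 1 to 3 and 15626, 8963 and 6006 CPM in MSC replicates 1 to 3. All MSC values lay above all control values, and the log2 fold was 4.28 ± 1.08 (SE, edgeR adjusted p = 0.0184). In CKD kidneys this gene stood at 460.4, 6652 and 413 CPM, so that 1 CKD library lay within the MSC range and the other two beside the controls. That library, CKD replicate 2, was the highest of the CKD libraries for 11 of the 13 genes. It also held the largest share of counts in all genes called higher, 11.6% against 7.68% and 7.01% in CKD replicates 1 and 3. The 11 are therefore not read as particular to the 13 genes.

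On the side of decreases, the most abundant gene called lower averaged 6005 ± 826 CPM in control and 3385 ± 1073 CPM in MSC kidneys (SD, n = 3 each). Its MSC values of 2296, 3419 and 4441 CPM lay below the lowest control value of 5053 CPM, with a log2 fold of -0.83 ± 0.27 (SE, edgeR adjusted p = 0.0414). The fifth in abundance fell further, from 5310 ± 352 to 1634 ± 549 CPM (SD, n = 3 each), a log2 fold of -1.70 ± 0.34 (SE, edgeR adjusted p = 0.00856). Its 3 MSC values, 1002, 1999 and 1900.4 CPM, all lay below its lowest control value of 4995 CPM.

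The called genes took up different parts of the libraries. Genes called higher held 7.42%, 7.51% and 6.33% of all counts in control replicates 1 to 3 and 20.5%, 16.1% and 13.4% in MSC replicates 1 to 3. Genes called lower held 29.3%, 29.3% and 29.5% in controls and 15.2%, 16.1% and 18.8% in MSC kidneys. MSC replicate 1 lay farthest from the controls in both sets and MSC replicate 3 nearest. The same libraries served to choose these sets, so no test of the shares is given. On the CPM scale, which gives abundant genes more weight, 106 genes (3.56% of those called higher) made up 50% of the CPM gained. Likewise, 107 genes (3.96% of those called lower) made up 50% of the CPM lost. The counts themselves were unevenly spread: the 100 most abundant genes of a library held 27.9% to 31.8% of its counts in controls and 27.9% to 32.2% in MSC kidneys. In CKD libraries, which took no part in the contrast, the genes called higher held 7.01% to 11.6% and those called lower 25.2% to 29.6% of counts, with CKD replicate 2 at the MSC end of both ranges.

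**Figure D3:**
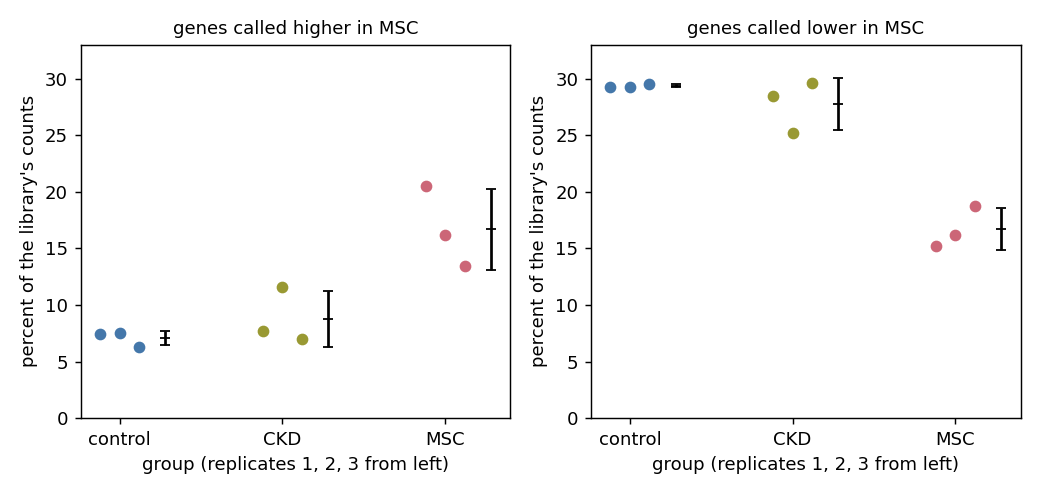
Percent of each library's counts (vertical axes, from 0) held by genes called higher (left) and lower (right) in MSC kidneys, with 1 point per library and the mean ± SD of each group (n = 3) in black. The MSC points, 13.4% to 20.5% on the left and 15.2% to 18.8% on the right, lie apart from the control points at 6.33% to 7.51% and 29.3% to 29.5%.

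Genes whose 3 MSC and 3 control values did not overlap numbered 9256, which is 52.6% of all tested, 4775 with MSC above (27.2%) and 4481 with MSC below (25.5%). Of the 5677 called genes, 45 had some overlap. Separation was wide in a smaller set: among called genes with a mean level of 10 CPM or more, the lowest MSC value was at least 2 times the highest control value in 315 of 1527 genes called higher, and the lowest control value was at least 2 times the highest MSC value in 102 of 2202 called lower. At 4 times these numbers were 61 and 9. Of the 11907 genes not called, 6899 (57.9%) had a 95% interval within 2-fold either way, and the interval of the other 5008 reached beyond 2-fold.

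By the naming rule, ENSRNOG00000048167 and ENSRNOG00000047571 had the largest positive folds. The rule takes the extremes among called genes with no overlap between the groups, 2319 higher and 2535 lower. A passing p and the lack of overlap were thus fixed in advance for all 4 named genes. ENSRNOG00000048167 had 0 counts in all 3 controls and 664, 125 and 96 counts in MSC replicates 1 to 3, or 12.9, 2.61 and 1.97 CPM. All treated kidneys carried it, at uneven levels, with MSC replicate 1 highest. Its mean of 5.83 ± 6.14 CPM (SD, n = 3) was 100.7-fold the mean of 0.0579 CPM that 3 counts per control library stand for (edgeR adjusted p = 0.00454). This bound covers counting error in the controls only and not the spread of the MSC libraries. Without MSC replicate 1 the bound was 39.5-fold. Its fitted log2 fold, 11.28 with that library and 9.94 without it, is no bound. CKD libraries held 8, 11 and 4 counts, below every MSC library, and against CKD kidneys the treated kidneys had a log2 fold of 5.46 ± 0.92 (SE, edgeR adjusted p = 0.0108).

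ENSRNOG00000047571 had 0, 4 and 0 counts in controls and 756, 1307 and 259 counts in MSC kidneys, the latter 14.7, 27.3 and 5.31 CPM. The groups did not overlap, and the log2 fold was 9.14 ± 1.74 (SE, edgeR adjusted p = 0.00752). After scaling for depth with TMM (edgeR's factors for library composition), the pooled counts were 610.1-fold higher, with an exact 95% interval of 238 to 2241 for counting error only. limma-voom gave a similar log2 fold of 9.32 with an adjusted p of 0.126, which ends the call, in a range of 5.54e-07 (DESeq2) to 0.126 over the alternatives run. Without control replicate 2, the control with counts, edgeR's log2 fold was 12.71, and without MSC replicate 2, the highest library, it was 8.49. In CKD kidneys it stood at 11.4, 0.462 and 1.04 CPM. The highest of these lay within the MSC range, and neither CKD against control nor MSC against CKD passed the threshold (edgeR adjusted p = 0.756 and 0.229).

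Largest among the decreases were ENSRNOG00000025757 and ENSRNOG00000052349. ENSRNOG00000025757 had 15.4, 5.63 and 14.9 CPM in control replicates 1 to 3, and 6, 0 and 0 counts in MSC replicates 1 to 3. Every treated library lay below the lowest control, whose count was 303. Its log2 fold was -8.13 ± 0.80 (SE, edgeR adjusted p = 0.00225), and pooled counts, scaled for depth in the same way, were 293-fold lower in MSC kidneys (exact 95% interval 134 to 799, counting error only). The fold rests on the library with counts, since without MSC replicate 1 it was -12.32. CKD kidneys kept 8.59 to 10.4 CPM of this gene, inside the control range.

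ENSRNOG00000052349 had 6.76, 4.62 and 6.28 CPM in controls and 0, 3 and 0 counts in MSC kidneys. The log2 fold was -8.02 ± 1.78 (SE, edgeR adjusted p = 0.0121), and pooled counts, likewise scaled, were 289.9-fold lower in MSC kidneys, with an exact 95% interval of 98.9 to 1408 for counting error only. Without MSC replicate 2, the library with counts, the log2 fold was -11.31. CKD replicates 1 to 3 had 2, 2 and 108 counts. Thus 2 CKD libraries had no more counts than MSC replicate 2 and the third lay between the groups, and neither CKD against control nor MSC against CKD passed the threshold (edgeR adjusted p = 0.756 and 0.0772).

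**Figure D4:**
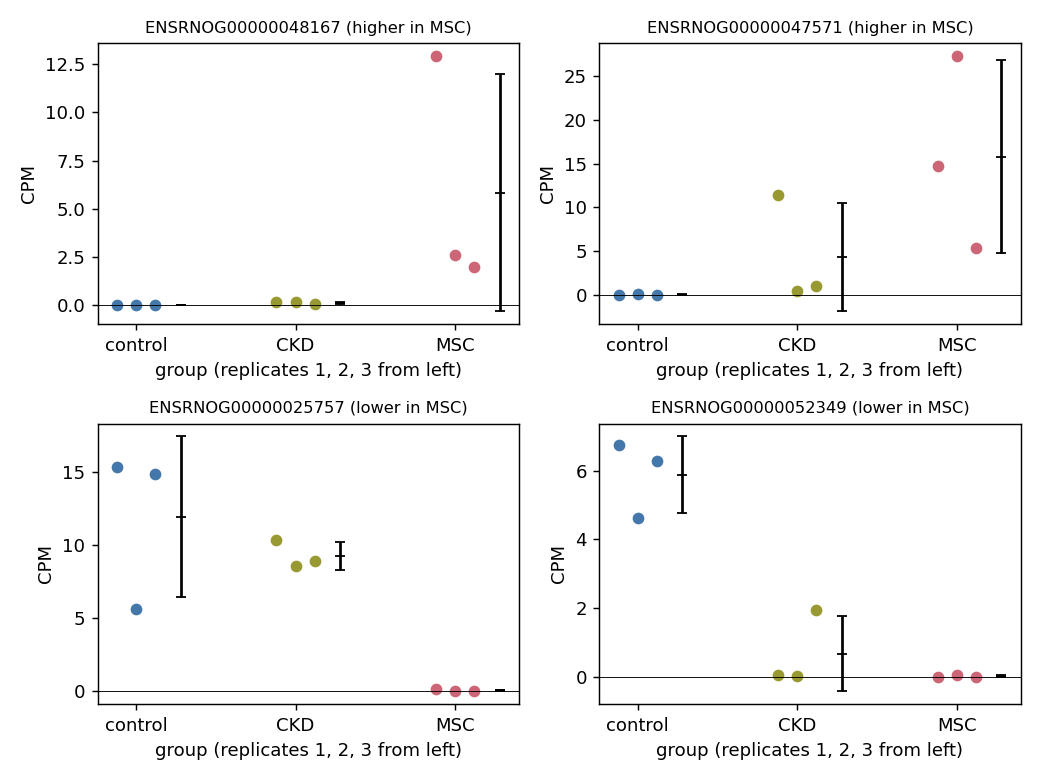
CPM (linear vertical axes) of the 4 named genes in each of 9 libraries, by group, with the mean ± SD (n = 3) in black. The upper genes are at or near 0 in controls and reach 12.9 and 27.3 CPM in single MSC libraries, and the lower genes are at or near 0 in MSC kidneys against 5.63 to 15.4 and 4.62 to 6.76 CPM in controls.

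Some genes had counts in treated or in control kidneys only. All controls had 0 counts and every MSC library at least 10 for 105 genes, of which 99 were called, and their mean in MSC kidneys had a median of 0.720 CPM and a maximum of 6.17 CPM. ENSRNOG00000048167 is among them. Of these genes, 32 had 0 counts in every CKD library too, 73 had counts in at least 1 and 11 in all of them. The opposite pattern held for 7 genes, each with counts in at least 1 CKD library and 5 with counts in every one. Leaving out a library removes a condition and can only raise both numbers, and a higher minimum count can only lower them. Without control replicate 1 the 105 became 197, without MSC replicate 3 they became 163, and at a minimum of 20 counts they were 41. Leaving out any of the 6 libraries brought the 7 to between 13 and 24.

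The treated kidneys lay at different distances from the controls. Between pairs of libraries, the median absolute difference of a gene on the log2 CPM scale was 0.21 to 0.28 among controls, 0.23 to 0.34 among MSC kidneys and 0.41 to 0.64 between a control and an MSC kidney. The smallest differences from the controls, 0.41 to 0.46, belonged to MSC replicate 3 and the largest, 0.56 to 0.64, to MSC replicate 1. For the genes called higher, the median distance from the control mean was 1.63 in MSC replicate 1, 1.47 in replicate 2 and 1.15 in replicate 3 on the log2 scale. MSC replicate 1 was the farthest from controls for 59.4% of the genes called higher and 58.0% of those called lower, and MSC replicate 3 for 9.89% and 18.3%. Within groups, the median SD of a gene was 0.22 in controls and 0.24 in MSC kidneys on the log2 scale.

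Each of the 6 libraries was left out in turn, genes were called without it, and its value was set beside the means of both groups. The left-out library was nearer to its own group for 90.3% to 92.3% of the called genes when it was a control, and for 93.4% and 95.5% when it was MSC replicate 1 or 2. For MSC replicate 3 this held for 74.8% of 5525 genes, 80.5% of those called higher and 68.6% of those called lower. Over all genes tested the shares were 71.8% to 75.0% for controls, 75.6% and 77.6% for MSC replicates 1 and 2 and 63.7% for MSC replicate 3. The other group's 3 libraries served both in the calls and in the distances, so these shares are descriptions with no test.

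**Figure D5:**
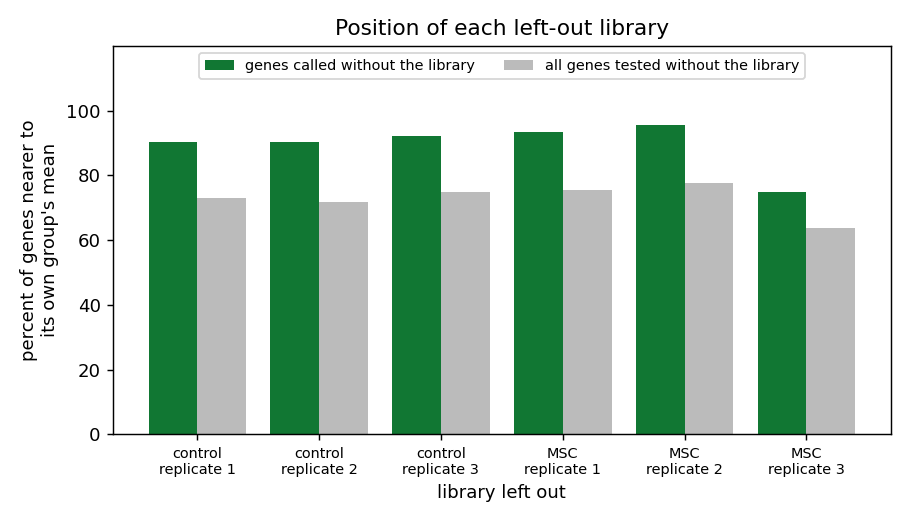
Percent of genes (vertical axis, from 0) for which a left-out library lay nearer to the mean of its own group than to that of the other group, for genes called without that library (green bars) and all genes tested without it (grey bars). MSC replicate 3 has the lowest bars, at 74.8% and 63.7%, and MSC replicate 2 the highest, at 95.5% and 77.6%.

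The CKD libraries were also set beside the controls. No gene passed edgeR's test between CKD and control (0 of 17584, smallest adjusted p = 0.207), although 1151 had an unadjusted p under 0.05. limma-voom called 0 genes there and DESeq2 69. Over the 2974 genes called higher in MSC than in control kidneys, the median log2 fold of CKD against control was 0.27, and over the 2703 called lower it was -0.11, both with the same controls in either comparison and against a median of 0.0045 over all genes. Of these genes, 1669 (56.1%) and 1677 (62.0%) were also called in the same direction between MSC and CKD, where 22.8% of all genes were called, and 1 gene was called the opposite way. The MSC libraries served in both comparisons, so this overlap is a count and no independent support.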

How the data were processed

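Polyadenylated RNA of rat kidney was sequenced in 9 strand-specific libraries, per the labels' protocols. The submitters' processing notes name cutadapt, HISAT2, StringTie and the build Rnor_6.0. The authors deposited whole-number, unscaled counts for 22637 Ensembl identifiers. Annotation release, strand setting and filters: not given in the sources used here. Of the gene table at hand (47357 rat genes), 0 entries carry an Ensembl identifier, so 0 were paired with a symbol. The 42 gene lists chosen for this work could not be used, and no sequence is printed.

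Tests used edgeR 4.0.16 in R 4.3.3: filterByExpr, TMM scaling, and a robust quasi-likelihood fit to 9 libraries with group as the only term, two-sided, with Benjamini-Hochberg adjustment. TMM factors scaled the CPM values, with a prior count of 2 on the log2 scale. Detected genes, level bands per library and shares of counts used the unscaled counts of all 22637 rows. Errors of log2 folds derive from the F statistic. Tested genes held 99.97% to 99.99% of counts. DESeq2 1.42.0 and limma-voom (limma 3.58.1) were alternatives.

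Named genes were the 2 largest positive and 2 largest negative log2 folds among genes with an adjusted p under 0.05, values of both groups apart and an average level of 1 or more on the log2 CPM scale. Comparison, lists and rules were chosen with earlier results of these data known. Replicates differed by far more than counting noise (chi-square per gene at least 62.7), and none was merged.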

Additional observations from a re-analysis of the deposited data

How the results depend on the processing

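Every gene called between MSC and control kidneys kept its sign in all alternatives in which it was tested. This was largely fixed in advance, since all alternatives reuse the same counts and 5632 of the 5677 genes had no overlap between the groups. The number called stayed within 1.5 times of 5677 with other scalings (4889 to 5574), other filters on low counts (5135 and 5517), limma-voom (5991), DESeq2 (6997) and only the 6 MSC and control libraries (5645). Without CKD replicate 2, an alternative chosen after seeing the data, it was 5890 (3141 higher, 2749 lower). Requiring a 2-fold change, which can only remove genes, left 2783, 2017 higher and 766 lower. Without single libraries, which leaves fewer samples, the number ran from 3077 to 5525, with 1712 to 2856 higher and 1365 to 2669 lower; the lowest kept 3014 of the 5677 calls. Genes absent from controls and present in MSC kidneys numbered 41 at 20 counts and 120 to 197 without single libraries. The opposite pattern numbered 5 at 20 counts and 13 to 24 without single libraries. Both directions were fixed in advance, since a higher minimum can only remove such genes and leaving out a library can only add them. The 4 named genes kept their sign throughout, and edgeR called each in all its alternatives. The titles number replicates alike in both groups and do not say that they are pairs. Same-numbered deviations correlated at 0.096, -0.042 and 0.13 across genes. Best with their own number correlated 2 of 3 controls and 2 of 3 MSC libraries. With 3 libraries per group these values cannot decide on pairing, and the main fit did not treat the libraries as pairs. A fit with the replicate block called 6033 genes, 3153 higher and 2880 lower, with each named gene still called. Gene lists could not be run without names. Genes under about 1 CPM rest on few counts.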
